A study of Mus musculus with 2 samples.

Results

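Within the E12.0 mandibular epithelium, 309 of 11355 kept cells (2.72%) were Isl1/Tlx1-positive dental cells, a group labelled as the incisor side of the dental epithelium. They were selected on raw UMIs, each of which stands for 1 captured transcript molecule. A member had at least 1 UMI of Irx1, at least 1 UMI of Fst and Enc1 together, no more than 1 UMI of Shh, and at least 2 UMIs of Isl1 and Tlx1 together. The first 3 conditions were met by 924 cells. Of these, 421 had no UMI of Isl1 or Tlx1 and are called Isl1/Tlx1-negative dental cells here, and 194 had a single one. Members are compared with the negative dental cells and with all 11046 other kept cells, which include the negative ones.

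The E12.0 library came from untreated K14Cre;R26mT/mG mouse embryos, in which Cre under a keratin 14 promoter switches a reporter from tomato to GFP in surface epithelium. Epithelia of 6 embryos of 1 litter were pooled, GFP-positive cells were sorted, and 1 10x Genomics library was made, so unrecombined epithelium was not sampled. A second library of the same genotype held unsorted cells of the pooled mandibular arches of 8 E9.5 embryos. Each stage had 1 library, so groups of cells were set side by side without a test. Brackets hold exact 95% intervals, which cover counting error only.

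Teeth begin as a thickening of the oral epithelium, the dental lamina, from which incisors form near the midline and molars further back. Along this axis the epithelium signals to the mesenchyme below it through BMP4 near the midline and FGF8 at the molar end. ISL1, a LIM homeodomain transcription factor, is known from the incisor end of the oral epithelium. TLX1 is a homeodomain factor best known for its need in spleen formation, and IRX1 belongs to the Iroquois homeodomain family. FST binds and blocks activins, and ENC1 is an actin-binding protein of the kelch family.

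Members carried between 1 and 9 UMIs of Irx1, with a median of 2. The summed Isl1 and Tlx1 count ran from 2 to 10 with a median of 3, and 126 members stood at the limit of 2, 121 at 3 to 4 and 62 at 5 or more. Isl1 was seen in 94.2% of members and Tlx1 in 63.1%. Both were present in 177 cells, Isl1 alone in 114 and Tlx1 alone in 18. These values describe the selection. Just outside it, the 194 cells with 1 UMI had 77.6 CPM of Isl1 and 39.1 CPM of Tlx1, against 239 and 90.3 CPM in members. CPM, used throughout, scales the pooled UMIs of a group of cells to 1000000.

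Because several UMIs were needed, the rule took deeper cells. Members had a median of 9319 UMIs (3399 to 21599) and 3470 genes, cells with 1 UMI a median of 7684.5 UMIs, negative dental cells 6938 UMIs and all others 6298. Scrublet, which compares each cell with simulated mixtures, called 53 members (17.2%) doublets, against 22 negative dental cells (5.23%) and 608 of all other cells (5.50%). UMIs of both Xist and a Y-linked gene, which no single embryo should give, occurred in 12.9% of members and 6.65% of negative dental cells. Ratios of CPM are therefore given, and shares of E12.0 cells with a UMI of a gene that the rule did not use also after every cell was thinned to 4100 UMIs. Thinning left out 1024 shallower cells. Without the called doublets, the log2 ratios to negative dental cells given below for the regional markers kept their directions.

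Regional and dental genes that the rule did not use were examined first, since some of them bear on the incisor label. Ednrb, the endothelin receptor type B gene (ENSMUSG00000022122, GRCm38 chromosome 14, 103814625 to 103844402), and Ddit4l, an inhibitor of mTOR signalling (ENSMUSG00000046818, chromosome 3, 137621612 to 137628333), were listed for the incisor class. The study's text names Ednrb for incisor and molar cells together and gives neither gene as particular to the incisor, so their levels do not test the label. Fgf8 (ENSMUSG00000025219, chromosome 19, 45736798 to 45742915), a fibroblast growth factor ligand, marks the lateral, molar field, and Bmp4 the medial, incisor field. Timp3, a metalloproteinase inhibitor, and Prss23, a serine protease, mark the diastema between them.

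Ednrb was at 21.0 CPM (16.2 to 26.8) in members, 12.6 in cells with 1 Isl1 or Tlx1 UMI, 11.5 (8.04 to 15.9) in negative dental cells and 2.19 in all other cells. The log2 ratio of members over negative dental cells was 0.88 (0.27 to 1.505) and that over all other cells 3.26 (2.83 to 3.69). Members were thus higher than either group, although a UMI of Ednrb occurred in only 14.2% of them, 6.18% of negative dental cells and 1.27% of the rest. After thinning the shares were 7.52%, 3.91% and 0.838%. When the rule itself was applied to thinned cells, 76 members remained and their log2 ratio over negative dental cells was 0.10 (-1.69 to 1.58).

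Ddit4l was at 26.5 CPM (21.1 to 33.0) in members and 18.5 (14.0 to 23.9) in negative dental cells, a log2 ratio of 0.52 (0.02 to 1.03). Its highest value, 33.7 CPM, was in the cells with 1 UMI. All other cells had 4.25 CPM. The litter held female and male embryos, and cells with Xist and no Y-linked UMI (100 members) should come from other embryos than cells with a Y-linked and no Xist UMI (140 members). The Ddit4l log2 ratio was 1.04 (0.09 to 2.07) among the female-type cells and -0.24 (-1.06 to 0.58) among the male-type cells. For Ednrb the ratios were 0.89 and 0.56, with both intervals reaching below 0. With the rule on thinned cells, the Ddit4l ratio was 0.50 (-0.65 to 1.54).

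Ednrb or Ddit4l was seen in 28.2% of members, 23.7% of cells with 1 UMI, 13.5% of negative dental cells and 3.43% of all other cells, or in 15.7%, 13.0%, 9.05% and 2.17% after thinning. Conversely, of the 466 kept cells with either gene, 18.7% were members, 9.87% had 1 Isl1 or Tlx1 UMI and 12.2% were negative dental cells. The rest, the larger part, did not meet the dental conditions, and among cells that did, the 2 genes occurred on either side of the Isl1/Tlx1 condition.

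Fgf8 showed the widest separation of members from negative dental cells among these 6 genes. It was at 20.1 CPM (15.4 to 25.7) in members, 28.9 in cells with 1 UMI and 82.5 (72.8 to 93.2) in negative dental cells, where it was 4.11-fold higher than in members (log2 ratio -2.04, -2.46 to -1.64). Members lay close to the 25.1 CPM of all other cells. Female-type cells gave -1.63 and male-type cells -1.77. A UMI of Fgf8 was present in 13.6% of members and 36.8% of negative dental cells, or 7.52% and 24.9% after thinning. Fgf8 together with Ednrb or Ddit4l was seen in 6 members (1.94%), 17 negative dental cells (4.04%) and 0.480% of all other cells.

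Both diastema markers were lower in members. Timp3 was at 60.9 CPM in members and 104 in negative dental cells (log2 ratio -0.77, -1.03 to -0.50), and Prss23 at 68.0 and 102 CPM (-0.58, -0.84 to -0.33). Timp3 gave -0.35 (-0.88 to 0.17) in female-type and -0.91 (-1.30 to -0.53) in male-type cells. Prss23 gave -0.96 (-1.43 to -0.50) in female-type and -0.21 (-0.60 to 0.17) in male-type cells. Bmp4, the midline signal, was too sparse to separate the groups, at 4.21 CPM (2.24 to 7.20) in members and 3.19 (1.53 to 5.86) in negative dental cells, and was higher, at 9.90 CPM, in all other cells. Of the genes that mark one field, Fgf8 was thus lower in members than in negative dental cells, but close to its level in all other cells. Its separation rests on the high level in negative dental cells, so it sets those apart rather than members. Bmp4 gave no separation at this depth.

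**Figure D1:**
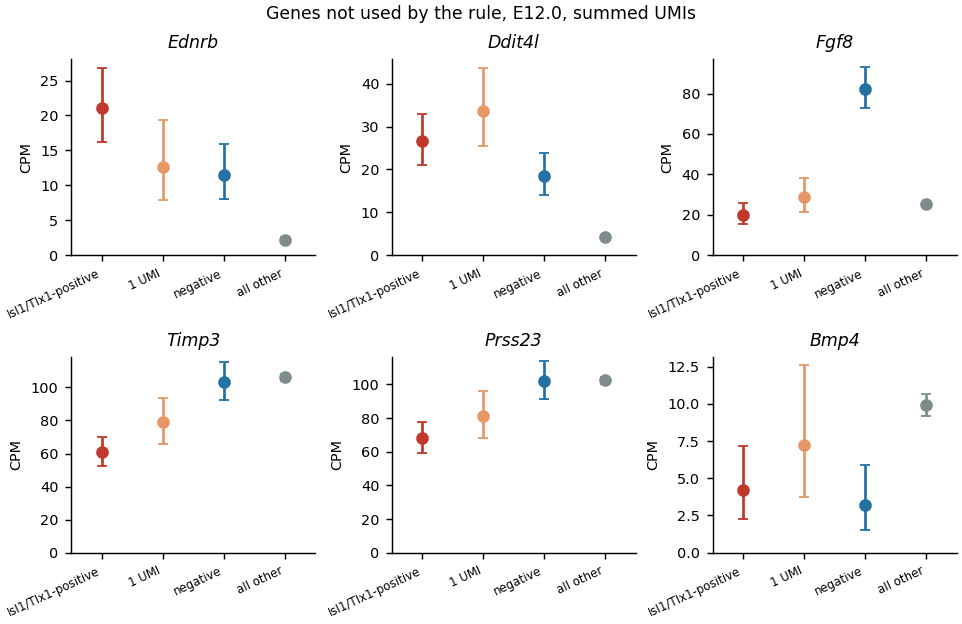
CPM of 6 genes not used by the rule (vertical axes, each from 0) in 4 groups of E12.0 cells: Isl1/Tlx1-positive dental cells, dental cells with 1 Isl1 or Tlx1 UMI, Isl1/Tlx1-negative dental cells and all other kept cells. Points are summed values and bars exact 95% Poisson intervals of the counts. Fgf8 is highest in negative dental cells (82.5 CPM), Ednrb in members (21.0 CPM).

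The promoters of these genes, the 6 genes of the rule and the 20 genes described next were searched for TAATCC, on both strands, the core bound by bicoid-type homeodomain proteins. Of these 31 genes, Fgf8 being in both sets, 19 had a RefSeq promoter window, and some had several. The motif was present in 3 of their 26 windows of 250 bases before a start, 1 each of Isl1, Ednrb and Prss23, and in 6.25% of all such windows. Isl1, which selected the members, and Ednrb, which stood furthest above all other cells among the 6 genes above, are shown 5′ to 3′ on the strand of the gene, with the motif, or GGATTA where it reads on the other strand, in capitals. In Isl1 (GRCm38.p6, minus strand, chr13:116309689-116309938) it lies 177 to 172 bases before the start, and in Ednrb (minus strand, chr14:103843702-103843951) 25 to 20 bases before it. The Ednrb window precedes a RefSeq start that lies inside the gene span given above. A match describes these letters only.
Isl1: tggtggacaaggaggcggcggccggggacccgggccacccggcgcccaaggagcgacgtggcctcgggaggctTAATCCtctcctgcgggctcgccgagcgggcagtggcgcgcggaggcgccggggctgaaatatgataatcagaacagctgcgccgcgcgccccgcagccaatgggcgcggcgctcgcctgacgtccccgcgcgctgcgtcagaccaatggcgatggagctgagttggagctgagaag
Ednrb: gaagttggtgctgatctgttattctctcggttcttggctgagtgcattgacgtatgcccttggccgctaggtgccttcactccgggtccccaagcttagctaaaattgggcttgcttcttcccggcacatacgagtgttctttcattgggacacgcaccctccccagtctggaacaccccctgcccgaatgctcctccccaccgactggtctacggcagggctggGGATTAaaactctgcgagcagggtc

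Members and negative dental cells differed in genes beyond the regional markers. A total of 7157 genes were detected in 15% or more of the members or of the negative dental cells. Of these, 343 (4.79%) were higher in members by a CPM ratio of at least 1.3 with a UMI in at least 15% of them, and 350 (4.89%) were lower by the same criteria. The interval of the ratio left out 1 for 228 of the higher and 279 of the lower genes, and 31 and 15 genes reached a 2-fold difference. These genes had been selected by their ratio in the same counts, so the numbers describe them and are not a test. The median log2 ratio over all genes compared was -0.0012. Of the higher genes, 196 reached 15% of cells in members alone, and 47 of the lower genes in negative dental cells alone, so these entered through the group where they were high. Among the 6280 genes that reached 15% in both groups, 147 (2.34%) were higher and 303 (4.82%) lower. The genes furthest apart, ranked after 5 CPM were added to both sides, are described next.

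Barx1, a homeobox gene (ENSMUSG00000021381, chromosome 13, 48662998 to 48666507), led this side. It was at 45.0 CPM (37.8 to 53.1) in members, 9.02 in cells with 1 UMI and 6.37 (3.89 to 9.84) in negative dental cells, a 7.06-fold difference (log2 2.82, 2.14 to 3.57). A UMI of it was present in 16.5% of members and 3.8% of negative dental cells, or 9.15% and 1.71% after thinning. Its level among all other cells was higher still, 74.3 CPM.

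Unc5c, a receptor for netrins (ENSMUSG00000059921, chromosome 3, 141465216 to 141834924), was at 67.0 CPM (58.2 to 76.8) in members and 17.8 (13.5 to 23.2) in negative dental cells. It was seen in 37.9% and 9.501% of these cells, or 21.6% and 5.87% after thinning. With the rule applied to thinned cells, its log2 ratio was 0.75 (-0.17 to 1.60) in place of 1.91. The relaxin receptor gene Rxfp1 was at 24.3 and 4.46 CPM (log2 2.44, 1.61 to 3.38), and its ratio on thinned cells was 1.58 (-0.08 to 3.18). Unc5c was the only one of these 3 whose level in members exceeded that of all other cells (33.2 CPM), Rxfp1 being at 49.2 CPM there.

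Tbx3, a T-box repressor, was at 75.1 CPM in members and 21.0 in negative dental cells (log2 1.84, 1.44 to 2.25). Amot, whose product angiomotin binds the Hippo effector YAP, was at 123 and 37.6 CPM (1.71, 1.41 to 2.02). The forkhead gene Foxe1 was at 50.8 and 15.3 CPM (1.73, 1.26 to 2.23). With the rule on thinned cells, the log2 ratio was 1.14 (0.27 to 1.97) for Tbx3 and 1.04 (0.27 to 1.77) for Amot. For Foxe1 it was 1.21 (0.04 to 2.31). Isl2, the closest relative of Isl1, which the rule did not use, was at 19.4 and 4.46 CPM (2.12, 1.27 to 3.08), and 0.95 (-0.95 to 2.63) on thinned cells. Each of these was between the values of both groups in cells with 1 Isl1 or Tlx1 UMI, as were all 10 genes of this side.

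The BMP-responsive homeobox genes Msx1 and Msx2 were also on the higher side. Msx1 was at 115 CPM (104 to 128) in members and 48.1 (40.8 to 56.4) in negative dental cells (log2 1.26). Msx2 was at 49.9 and 17.5 CPM (log2 1.51). With the rule on thinned cells, the log2 ratios of Msx1 and Msx2 were 1.22 (0.62 to 1.80) and 0.90 (-0.10 to 1.83). Barx2, the relative of Barx1, was at 42.4 and 14.98 CPM. Its log2 ratio of 1.502 was not stable, at 0.70 within 4100 to 12000 UMIs, 0.15 among cells with at most 5% mt- UMIs and 2.75 on thinned cells. For 7 of the 10 genes members were nonetheless below all other kept cells, among them Msx1 (147 CPM), Msx2 (78.4 CPM) and Barx2 (97.7 CPM). All of the 10 except Amot and Msx1 reached 15% of cells in members alone, so they entered through the group where they were high.

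On the lower side, Fgf8 was followed by Frem1, which encodes a basement membrane protein, at 15.9 CPM (11.7 to 21.0) in members and 57.7 (49.6 to 66.7) in negative dental cells. Eya2, a transcriptional coactivator with phosphatase activity, was at 9.06 and 28.0 CPM (log2 -1.63, -2.30 to -1.001), and Sp5, a zinc finger gene that responds to WNT, at 13.9 and 35.7 CPM (-1.36, -1.90 to -0.84). The stress-response factor Atf3, the Notch-ligand relative Dlk1, the transmembrane gene Slitrk6 and Sh3rf2 had log2 ratios of -1.14, -1.12, -1.10 and -1.14. With the rule on thinned cells, the log2 ratio was -0.086 (-1.19 to 0.89) for Sp5 and -0.14 (-1.03 to 0.66) for Slitrk6. Alcam, a cell adhesion molecule, was at 69.6 and 141 CPM, and Krt17, a keratin of early ectodermal organs, at 47.3 and 94.97 CPM. For 9 of these 10 genes the cells with 1 UMI lay between the groups, and Atf3 was the exception, at 26.5 CPM against 26.9 in members. Fgf8, Frem1, Eya2, Sp5 and Sh3rf2 reached 15% of cells in negative dental cells alone.

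All 19 of these genes other than Fgf8 differed in the same direction in female-type and male-type cells, as Fgf8 did. The size of the difference was less alike. Barx1 gave a log2 ratio of 3.92 in female-type and 1.91 in male-type cells, Unc5c 3.13 and 0.99, and Isl2 0.79 and 2.79. Without doublets, all 74 listed or named genes past the size criteria against negative dental cells kept their directions. The genes of both checks had been picked for their ratios in these same cells, and 256 of the 309 members were left without doublets. Agreement in direction was therefore likely from the outset. For some genes the interval without doublets included 0, as for Tfap2b (log2 0.08, -0.44 to 0.60).

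The same ratio was taken among cells that failed any of the first 3 conditions. There, 2889 cells had at least 2 UMIs of Isl1 and Tlx1 and 5314 had none. These cells are not all non-dental, since 178 and 397 of them had a UMI of Irx1 and others may have lacked one at this depth. All 10 genes higher in members were also higher in those Isl1/Tlx1-positive cells. The log2 ratio was 2.24 for Unc5c, above that in dental cells, and smaller than in dental cells for the other 9. It was 2.28 for Barx1, 1.72 for Rxfp1 and 1.60 for Isl2, each within the interval of the dental ratio. It was 1.33 for Amot, 0.93 for Foxe1, 0.62 for Tbx3, 0.51 for Msx1, 0.47 for Msx2 and 0.24 for Barx2, each below that interval. Of the 10 lower genes, 7 were also lower there. Fgf8 was at 15.5 CPM in the positive and 28.6 CPM in the negative cells, a log2 ratio of -0.88, whereas Alcam (-0.05) and Sh3rf2 (0.01) hardly differed. Whether the regions that these cells come from account for this was not tested.

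**Figure D2:**
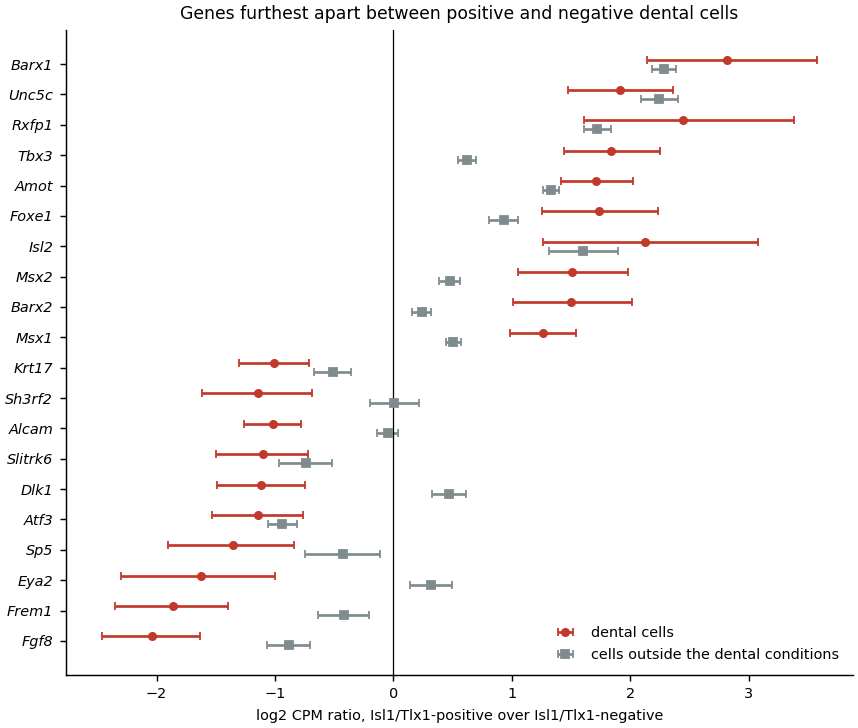
Log2 CPM ratio of Isl1/Tlx1-positive over Isl1/Tlx1-negative cells (horizontal axis) for the 20 genes furthest apart among dental cells, in dental cells (circles) and in cells outside the dental conditions (squares). Bars are exact 95% intervals of the ratio of counts. The 10 upper genes lie to the right of 0 in both, and Dlk1 and Eya2 lie on opposite sides.

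Levels were also set against the number of Isl1 and Tlx1 UMIs, for genes chosen after their values were seen. The bins use the counts that chose the members, so the levels are a description. Barx1 was at 6.37 CPM in cells with 0, 9.02 with 1, 26.2 (17.8 to 37.2) with 2, 37.3 (27.2 to 49.9) with 3 to 4 and 90.3 (69.4 to 116) with 5 or more. Unc5c was at 17.8, 45.7, 49.8 (37.9 to 64.3), 67.9 (54.0 to 84.3) and 94.6 CPM (73.1 to 120) over the same steps. Tbx3 was at 65.0 (51.3 to 81.3), 76.2 (61.4 to 93.5) and 90.3 CPM (69.4 to 116) in the bins of members, and Foxe1 at 49.8, 48.0 and 57.3 CPM, with intervals that overlap for each.

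Fgf8 was at 82.5 CPM with 0 UMIs, 28.9 with 1, and 28.7, 13.3 and 17.2 CPM in the 3 bins of members. Frem1 was at 57.7, 29.5, 16.9, 20.7 and 5.73 CPM. Ednrb was at 11.5, 12.6, 22.8, 24.0 and 12.9 CPM, and Ddit4l at 18.5, 33.7, 25.3, 31.5 and 20.1 CPM, with wide intervals in the bin of 5 or more (5.90 to 24.5 for Ednrb and 11.0 to 33.7 for Ddit4l). The median depth was also greater in each higher bin, from 6938 UMIs in cells with none to 10916.5 in those with 5 or more, and its part in these values was not tested.

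**Figure D3:**
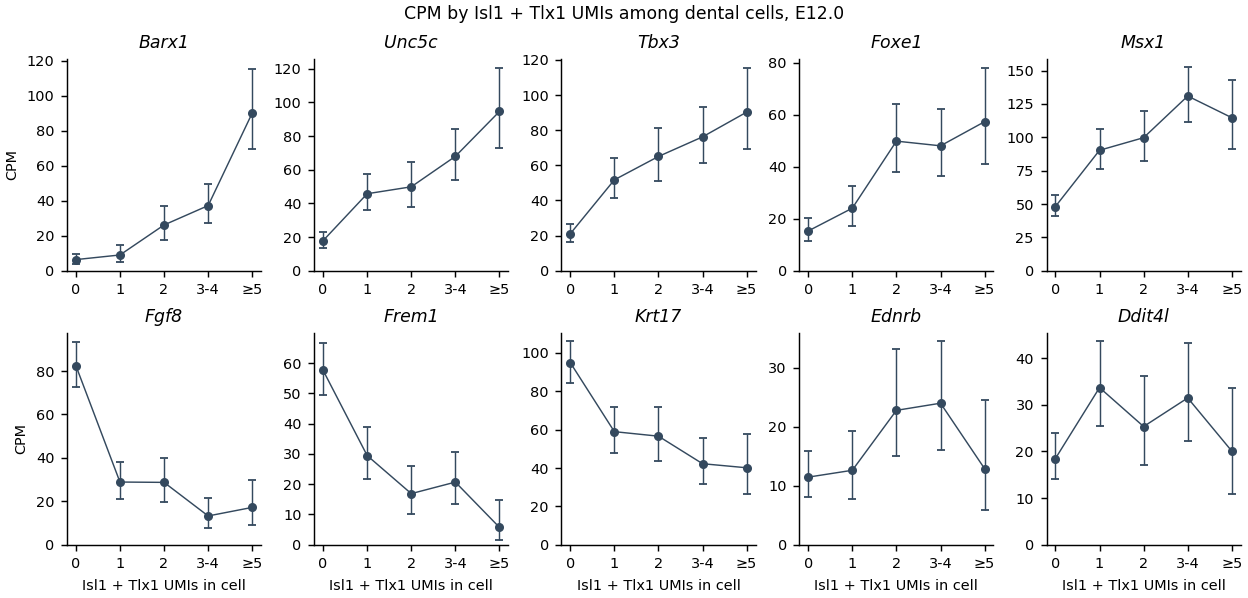
CPM (vertical axes, each from 0) of 10 genes in dental cells binned by their Isl1 and Tlx1 UMIs (horizontal axis; 421, 194, 126, 121 and 62 cells). Bars are exact 95% Poisson intervals. Barx1 is highest, at 90.3 CPM, in the last bin, Fgf8 is highest at 0 UMIs, and Ednrb is highest, at 24.0 CPM, in the bin of 3 to 4.

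Members with Isl1 alone, Tlx1 alone or both were alike in Unc5c, at 62.9, 66.9 and 69.4 CPM, and in Foxe1, at 54.4, 61.3 and 47.7 CPM. They were less alike in Timp3, which was at 33.8 CPM (23.7 to 46.8) in cells with Isl1 alone and 71.0 (59.4 to 84.3) in those with both. Its level was highest, 117 CPM (72.4 to 179), in cells with Tlx1 alone. The 18 cells with Tlx1 alone had the highest Barx2, 145 CPM (94.6 to 212), against 23.5 (15.2 to 34.6) with Isl1 alone. They also had 117 CPM of Dlk1 (72.4 to 179), against 18.8 (11.5 to 29.0). Without doublets, 14 cells with Tlx1 alone remained, with 124 CPM of Barx2 and 147 CPM of Dlk1. Their Timp3 was then at 92.7 CPM (47.9 to 162), against 66.2 (53.2 to 81.5) in cells with both, with intervals that overlap. The 18 cells sum to 179465 UMIs, so their values rest on few molecules.

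Members and negative dental cells were chosen on the same 3 dental conditions, so the dental genes they share are given as a description. Of the 6 shared dental markers, all 6 were higher in members than in all other cells by size, 4 of them having reached 15% of cells in members alone. Of all 7151 genes compared, 5.72% (409) were higher and 6.15% (440) lower, and 181 and 42 of these entered through 1 group alone. The desmosomal cadherin gene Dsc3 was at 258 CPM (240 to 277) in members, 274 (256 to 293) in negative dental cells and 87.5 in all other cells, and the Iroquois gene Irx2 at 82.6, 91.1 and 22.8 CPM. Ntrk2, the receptor for BDNF, was at 51.2, 82.9 and 20.5 CPM, above all other cells but below negative dental cells.

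The genes that set members furthest above all other cells were Ddit4l, Dock5, Lgr5, Irx2, Nrxn3, Zfp385c, Dsc3, Fam181b, Arhgdig and Zfp703. Lgr5, a receptor for R-spondins that raises WNT signalling, was at 38.8 CPM (32.2 to 46.5) in members, 25.2 (19.9 to 31.4) in negative dental cells and 8.06 in all other cells. Dock5, an activator of RAC, was at 35.3, 26.8 and 6.95 CPM, and the neurexin gene Nrxn3 at 55.0, 37.6 and 15.03 CPM. The transcriptional repressor gene Zfp703 was at 158, 155 and 61.0 CPM. All of the 10 except Dsc3 and Zfp703 reached 15% of cells in members alone. For all of them, negative dental cells, chosen on the same dental conditions, stood on the same side of the other cells as members did.

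At the other end, members were low in genes of the anterior epithelium. All 6 anterior markers that were compared were lower, beside 6.15% of all genes compared. Of these, Robo2, Gjb2 and Wnt9b entered through the other cells alone, the group where they were high, as did Col12a1. The 3 anterior markers that passed the filter in both groups were lower, beside 6.6% of all genes that did so. The chemokine gene Cxcl14 was at 182 CPM (167 to 198) in members, 93.4 in negative dental cells and 891 in all other cells. Tfap2b, an AP-2 transcription factor, was at 83.2, 53.5 and 436 CPM, and the Slit receptor gene Robo2 at 12.6, 11.8 and 85.4 CPM. Krt15, a keratin of basal cells, was at 78.3, 47.5 and 313 CPM. Gjb2, Piezo2, Wnt9b, Col12a1, Lgals7 and Gas1 completed the list, with log2 ratios over all other cells between -2.07 and -2.72. Here too both dental groups were on the same side. Much of what members had of these genes was in called doublets. Without doublets Cxcl14 was at 68.6 CPM and Tfap2b at 26.0 CPM in members, and the log2 ratios over all other cells went from -2.29 to -3.71 for Cxcl14, from -2.39 to -4.06 for Tfap2b and from -2.76 to -5.34 for Robo2.

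**Figure D4:**
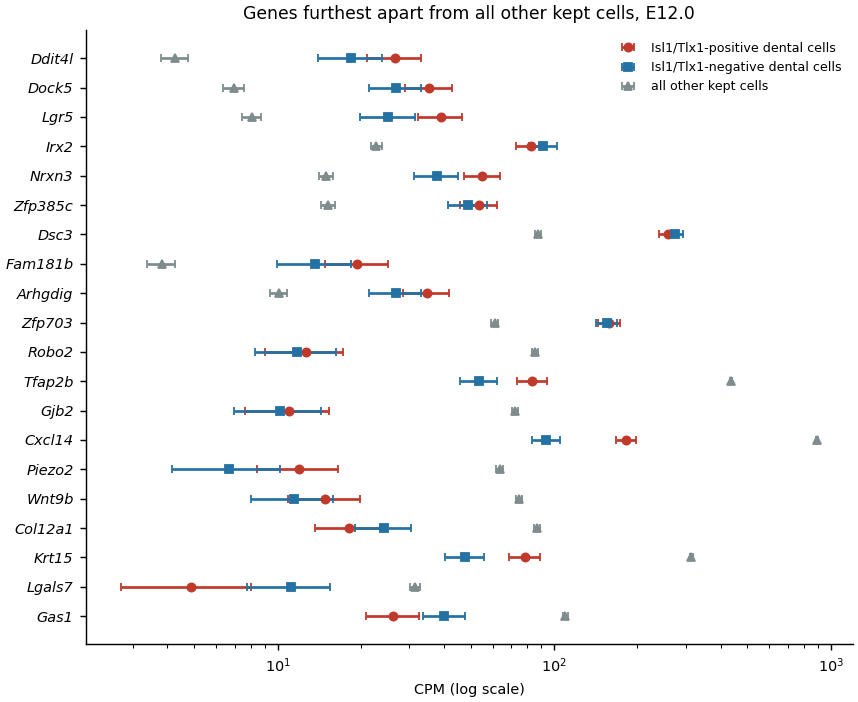
CPM (horizontal axis, log scale) of the 20 genes furthest apart between Isl1/Tlx1-positive dental cells and all other kept cells, in these 2 groups and in Isl1/Tlx1-negative dental cells. Bars are exact 95% Poisson intervals. For every gene the 2 dental groups lie on the same side of the other cells, as for Lgr5 at 38.8, 25.2 and 8.06 CPM.

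The summed levels of markers of several neighbouring regions were higher in members than in negative dental cells. For some of these lists, but not all, the difference shrank or turned without called doublets. Of the 7 anterior markers, Cxcl14 passed the 15% filter in both groups and was higher by size, Tfap2b and Lmo1 passed it in members alone, and the list summed to 349 CPM in members, 209 in negative dental cells and 1738 in all other cells. Of the 5 anterodorsal-medial markers, Wnt5a passed the filter in both groups and was higher, and Slc4a4, Unc5c and Rxfp1 passed it in members alone. The list summed to 224, 89.6 and 252 CPM. Posterior-medial markers summed to 88.4, 37.0 and 85.8 CPM, with Rprm, at 33.0 CPM in members, the most abundant of 7. No gene of the posterior-lateral, salivary gland and tongue lists reached 15% of cells in either dental group. Their sums rest on few molecules, at 71, 52 and 19 UMIs in members and 27, 27 and 3 in negative dental cells. Posterior-lateral markers summed to 23.0 (18.0 to 29.0), 8.60 (5.67 to 12.5) and 50.1 CPM, and salivary gland markers to 16.8 (12.6 to 22.1), 8.60 (5.67 to 12.5) and 35.9 CPM. Tongue markers summed to 6.15 (3.70 to 9.61), 0.956 (0.197 to 2.79) and 8.70 CPM, all of it Foxa1 in members. Anterodorsal-lateral markers summed to 598, 536 and 1399 CPM. Cells with 1 Isl1 or Tlx1 UMI were above members in the anterior (517 CPM) and salivary gland (33.1 CPM) sums. Without doublets these sums were 217 and 35.9 CPM in cells with 1 UMI, again above members. Their anterodorsal-medial (183 CPM), posterior-medial (60.8 CPM), posterior-lateral (16.2 CPM) and tongue (1.80 CPM) sums lay between both groups. Their anterodorsal-lateral sum, 532 CPM, was below both. Without doublets the anterior sum was 133 CPM in members and 104 in negative dental cells, and Tfap2b no longer separated these groups (log2 0.08, -0.44 to 0.60). The anterodorsal-medial sum was still 214 against 82.1 CPM and the posterior-medial sum 95.4 against 38.96 CPM. The posterior-lateral sum was 15.3 against 7.72 CPM and the tongue sum 5.54 against 1.05 CPM, whereas the salivary gland sum, 11.5 against 8.77 CPM, came closer, and the anterodorsal-lateral sum turned, at 470 against 485 CPM. With cells of 3 or more UMIs of Cxcl14 and Tfap2b together left out, a choice made after seeing the data, 251 members remained and the log2 ratios to negative dental cells were 1.02 for Ednrb, -2.04 for Fgf8 and 0.66 for Ddit4l.

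Blood, endothelial and mesenchyme markers were low or absent. Of 6 blood and immune markers none had a UMI in members, and 3 counts, the limit used for a count of 0, would be 0.971 CPM. Endothelial markers summed to 0.324 CPM, with Cdh5 and Kdr at 0 and Pecam1 the only gene seen. Of 8 mesenchyme markers, Twist1, Prrx1 and Col3a1 were at 0, and the list summed to 32.1 CPM in members and 31.6 in negative dental cells, with Dcn (14.9 CPM) the most abundant. The 8 periderm and suprabasal markers summed to 96.5 CPM in members, 107 in negative dental cells and 103 in all other cells, led by Ppl. Of the 10 initiation knot markers, Dkk4 was at 0 and the list summed to 84.5 and 133 CPM, led by Sp6, although Shh itself was limited by the rule. All 7 epithelial markers were detected, summing to 1824 and 2158 CPM, led by Krt14. What the low values of other cell types contribute was not tested.

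Of 34 transcription factors of the oral epithelium, 26 were compared between members and negative dental cells. Of these, 9 were higher and 3 lower by size, beside 4.79% and 4.89% of all compared genes. Barx1, Barx2 and Msx2 entered through members alone and Irx3 through negative dental cells alone, which leaves 6 higher and 2 lower among 21 genes that reached 15% in both groups. Besides the Msx and Barx genes, the higher ones were Dlx1, Runx1, Tcf7l2, Foxp2 and Lmo4. Runx1 was at 176 CPM in members and 85.7 in negative dental cells (log2 1.04, 0.82 to 1.25). The lower ones were Irx3 (21.4 and 41.1 CPM), Irx5 (39.8 and 63.7 CPM) and Tbx1 (42.1 and 59.0 CPM). Pitx1 (408 and 465 CPM) and Nkx2-3 (118 and 115 CPM) did not pass the size criteria.

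The shares of all compared genes that were higher (4.79%) or lower (4.89%) in members apply to the signalling and the other lists below as well. Of the signalling genes counted, Msx2, Lgr5, Notch2 and Tgfb1 entered through members alone, and Fgf8, Sp5 and Bdnf through negative dental cells alone. In the BMP list, 3 of 13 compared genes (of 22) were higher and none lower. These were Msx1, Msx2 and Sostdc1, an extracellular antagonist of BMP and WNT, at 220 CPM in members and 133 in negative dental cells (log2 0.72, 0.54 to 0.90). In the FGF list, 1 of 10 (of 20) was higher and 1 lower: the feedback inhibitor Spred1 was at 243 and 180 CPM, and Fgf8 was the lower one. The FGF receptor genes Fgfr1 (63.1 and 65.0 CPM) and Fgfr2 (170 and 146 CPM) did not pass.

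In the WNT list, 14 of 24 genes were compared. The ligand Wnt5a (69.3 and 30.9 CPM), Lgr5 and Sostdc1 were higher. The receptor genes Fzd10 (24.0 and 34.4 CPM) and Lgr4 (98.7 and 131 CPM), the antagonist Kremen2 (68.6 and 94.97 CPM) and Sp5 were lower. Against all other cells, 10 of 15 WNT genes were lower in members, beside 6.15% of all genes compared, among them the ligands Wnt4 (270 against 646 CPM) and Wnt7b (76.1 against 221 CPM), and 1, Lgr5, was higher. Of the 15, 12 reached 15% of cells in both groups, and 8 of these were lower. Of all 6030 genes that did so, 6.6% were lower. The WNT list summed to 1389 CPM in members, 1384 in negative dental cells and 2410 in all other cells. Its lower level was thus shared by both dental groups.

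Smaller lists held few genes that could be compared, and several of these passed in one direction or the other. The hedgehog list had 0 higher and 1 lower of 8 compared (Gas1, a hedgehog co-receptor, at 26.2 and 40.2 CPM). The Notch list had 2 higher (Jag1, a ligand, at 78.0 and 45.3 CPM, and Notch2) and 2 lower (Hes1, a target, at 78.7 and 114 CPM, and Jag2) of 5. In the ectodysplasin and NF-kB list 1 of 6 was higher, Nfkb1. In the activin and TGF-beta list Tgfb1 was higher (29.5 and 14.98 CPM) and the receptor genes Acvr2a and Tgfbr3 were lower, of 8. In the neurotrophin list Ntrk2 and its ligand Bdnf (11.7 and 22.6 CPM) were lower, of 5. The endothelin list had 1 gene compared, Ece1, which did not pass. Ednrb itself fell just under the 15% filter.

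Adhesion and cytoskeleton genes went in both directions, with Lama3 and Unc5c entering through members alone. Of 6 compared keratins, Krt15 and Krt8 were higher and Krt5 and Krt17 lower. Krt5, a basal keratin, was at 203 CPM in members, 361 in negative dental cells and 513 in all other cells. Of 9 basement membrane adhesion genes, Lama3 (37.2 and 19.1 CPM) and Col17a1 were higher and Dst (630 and 867 CPM) lower. Of 8 desmosome and cadherin genes none passed in either direction. Of 10 guidance genes, 4 were higher and none lower: Unc5c, Robo1 (58.6 and 34.4 CPM), Epha7 (128 and 94.3 CPM) and Sema3c. Of 4 protrusion and adhesion genes, Dock5 was higher and Slitrk6, Wasf1 and Flrt3 lower.

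Few proliferation genes passed the size criteria between the dental groups. None of 22 G2M genes and 1 of 22 S phase genes (Pola1) passed the size criteria against negative dental cells, with median log2 ratios of 0.10 and 0.052. The G2M genes summed to 4489 CPM (4415 to 4564) in members and 4164 CPM (4093 to 4236) in negative dental cells, and to 4834 and 4221 CPM without called doublets. Against all other cells 19 of 22 G2M genes were higher, beside 5.72% of all genes compared, with a median of 0.49. Of these, Aurka entered through members alone. The G2M sum was 3170 CPM (3085 to 3257) in cells with 1 Isl1 or Tlx1 UMI and 3163 CPM in all other cells. Of 6 compared CDK inhibitors and D cyclins, Ccnd1 was lower than in negative dental cells (244 and 320 CPM). Among 9 immediate-early and heat shock genes Egr1 (86.4 and 39.8 CPM), which entered through members alone, and Junb were higher and Atf3 lower.

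Whether members lie together in the expression of other genes was examined with the 20 nearest neighbours of each cell in 30 principal components, computed without the rule genes, cell cycle, sex and mitochondrial genes. Of the neighbours of members, 23.1% were members, 10.3% dental cells with 1 UMI, 10.3% negative dental cells and 27.8% Isl1/Tlx1-positive cells outside the dental conditions. These groups made up 2.72%, 1.71%, 3.71% and 25.4% of kept cells. Neighbours of negative dental cells were 24.0% negative dental cells and 8.15% members. Neighbours of Isl1/Tlx1-positive cells outside the dental conditions were members in 2.54% of cases, about their share of all cells. Members were therefore near both one another and other dental cells, without forming a separate set. When the rule was applied to thinned cells, only 76 members remained, and 5.66% of their neighbours were members (0.736% of those cells) against 12.7% negative dental cells (2.84%).

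**Figure D5:**
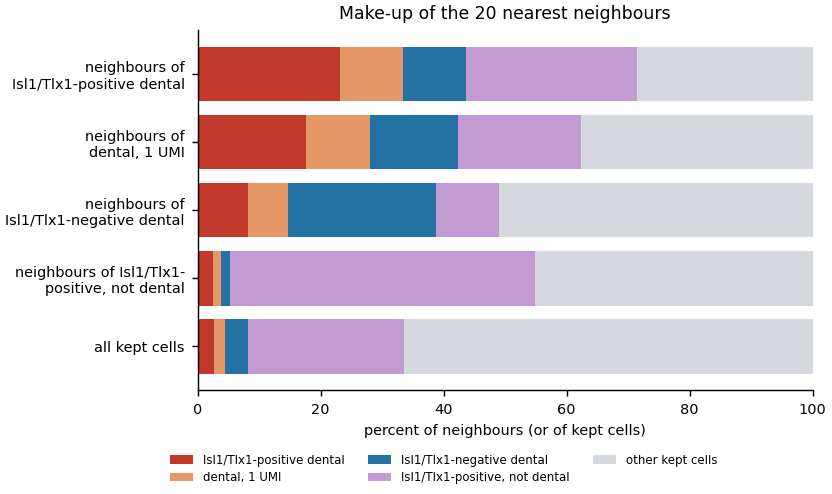
Make-up (percent, horizontal axis) of the 20 nearest neighbours of 4 groups of E12.0 cells, with the make-up of all kept cells as the lowest bar. Members make up 23.1% of their own neighbours, 8.15% of those of negative dental cells and 2.72% of kept cells.

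The same rule at E9.5 took 97 of 12744 kept cells (0.761%), and 101 cells met the first 3 conditions without Isl1 or Tlx1. Epcam was seen in 70.1% of the 97 cells against 37.8% of kept E9.5 cells, and the mesenchymal gene Twist1 in 52.6% (85.7 CPM) against 65.6% of all other E9.5 cells (442 CPM). Free RNA and expression of Twist1 cannot be told apart in this unsorted library. Ednrb and Ddit4l were sparse in them, with 2 and 5 UMIs. Fgf8 was at 119 CPM in these cells and 137 CPM in those without Isl1 or Tlx1, and Dsc3 at 0 in both. Bmp4 was at 11.2 CPM (6.62 to 17.7) in the 97 cells and 3.73 (1.37 to 8.13) in the 101, from 18 and 6 UMIs. The barcodes of the libraries overlapped in 44 kept cells, and no barcode met the rule at both stages.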

How the data were processed

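For both libraries the authors deposited UMI counts per gene and cell barcode, made with Cell Ranger against GRCm38/mm10, without normalization. The submitters' processing notes name version 2.0.0 and the file headers 3.1.0 (E12.0) and 6.1.2 (E9.5). The E12.0 counts cover 11663 barcodes and sum to 78911671 UMIs, of which 77936364 were in the 11355 kept cells (200 to 5500 genes, at most 10% mt- UMIs, as in the study). Kept E9.5 cells held 166191431 UMIs.

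UMIs were summed per group of cells with scipy 1.17.1, pandas 2.3.3 and numpy 2.4.6 under Python 3.11.15. Intervals are exact Poisson intervals of a count and exact conditional binomial intervals of a ratio of 2 counts, and cover counting error only, so their width depends on the 3088843 UMIs of members and 3137801 of negative dental cells. Genes were counted by size, since 1 library per stage allows no test, with the 6 rule genes left out. The steps were tested on Poisson counts simulated with known folds. These held no doublets, no selection on UMIs and no variation among cells other than depth, so the test does not cover those. Scrublet and principal components (2000 variable genes) came from scanpy 1.11.5, with a seed of 1, and neighbours from scikit-learn 1.9.0. Cells called doublets, above a score of 0.180, were kept. Gene positions are from GENCODE on GRCm38 and promoters from RefSeq on GRCm38.p6.

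Named genes are every listed gene and, for each comparison, the 10 largest and 10 smallest ratios among genes past the size criteria, leaving out rule, mt-, ribosomal, sex and unnamed genes. The members, lists and comparisons were chosen with earlier results of these data known. Cells outside the dental conditions, the promoter motif and the genes shown by Isl1 and Tlx1 count were chosen after values were seen. The alternatives changed thresholds, depth, weighting, doublets, cell filters and embryo pools. Results that need certain withheld genes are not reported here.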

Additional observations from a re-analysis of the deposited data

Results flagged for a closer look

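Several genes differed between Isl1/Tlx1-positive and Isl1/Tlx1-negative cells in opposite directions inside and outside the dental conditions, with both counting intervals leaving out 0. The cells come from 1 library, so the difference was not tested. Higher in positive cells only among dental cells were the anterior marker Tfap2b (log2 ratio 0.64 in dental cells and -1.34 in the others), Cxcl14 (0.96 and -0.79), Lmo1 (0.74 and -0.81) and Krt15 (0.72 and -0.34). Without called doublets the dental ratios were 0.08 (-0.44 to 0.60) for Tfap2b, 0.62 for Cxcl14, 0.67 for Lmo1 and 0.63 for Krt15. The basement membrane genes Lama3 (0.96 and -0.27) and Col17a1 (0.44 and -0.28) had the same pattern, but without called doublets the Col17a1 ratio was 0.32 (-0.10 to 0.75) and that of Lama3 1.04. Lower in positive dental cells but higher in the other positive cells were Eya2 (-1.63 and 0.32), Dlk1 (-1.12 and 0.47), Tbx1 (-0.49 and 0.92) and Prss23 (-0.58 and 0.10). Without called doublets the Tbx1 ratio was -0.34 (-0.70 to 0.0064).

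Among the 6 genes examined first, 2 had opposite directions in female-type and male-type cells. Ddit4l gave 1.04 in female-type and -0.24 in male-type cells, and Bmp4, which rests on 13 UMIs in members and 10 in negative dental cells, gave -0.11 and 2.20. These differences were not tested either, and the intervals of both Ddit4l ratios and both Bmp4 ratios overlap.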

How the results depend on the processing

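No paired analysis was possible because there was 1 library per stage. The rule held 309 cells, 76 on cells thinned to 4100 UMIs, 183 and 503 with Isl1 and Tlx1 of at least 3 or 1, 156 with Irx1 of at least 2 and 135 at 5% mt- UMIs. At E9.5 it took 195 cells in place of 97 with no upper limit on genes. The numbers of genes by size moved most with the criteria and with fewer cells. Against negative dental cells, higher and lower genes numbered 126 and 108 at a ratio of 1.5, 31 and 15 at 2, and 165 and 159 at 25% of cells. They numbered 678 and 731 with thinning, 660 and 664 with Irx1 of at least 2, 816 and 814 at 5% mt- UMIs, 1007 and 868 in female-type and 659 and 689 in male-type cells, and 532 were lower within 4100 to 12000 UMIs. Smaller groups gave more genes past 1.3, so these numbers are not comparable across settings. Against all other cells they were 158 and 195 at 1.5, 52 and 54 at 2, 688 and 743 with thinning and 754 and 686 in female-type cells, with 215 lower at 25% of cells and 640 higher with Irx1 of at least 2.

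Against negative dental cells, Ddit4l turned to -0.24 in male-type cells and was 1.04 in female-type cells. With thinning Ednrb was 0.10, Fgf8 -2.58, Timp3 -1.45 and Prss23 -1.13. Fgf8 was -2.49 with Isl1 and Tlx1 of at least 3, -1.50 at 5% mt- UMIs and -1.63 in female-type cells. Timp3 was -1.30 within 4100 to 12000 UMIs and -0.35 in female-type cells. Prss23 was -0.96 in female-type and -0.21 in male-type cells, and Bmp4 2.20 in male-type cells. The causes were not tested. Members made up 21.3% of their neighbours with 50 neighbours or 15 components and 5.66% with thinning. Over 13 alternatives, none of the other 19 genes named against negative dental cells and none of the 20 named against all other cells changed direction. These genes had been picked for their ratios in the same cells, so a change of direction was unlikely from the outset. In all, 206 of 247 and 160 of 260 of their values stayed within the interval first given. Sp5 came closest to 0, at -0.086, and Slitrk6 reached -0.14, both with the rule on thinned cells and with intervals that include 0.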
